A study of Mus musculus with 8 samples.

Results

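Toll-like receptors bind microbial lipids, proteins, and nucleic acids, and 10 genes of this system were followed in embryonic thymic epithelial cells (TECs). They were *Tlr1*, *Tlr2*, *Tlr3*, *Tlr4*, *Tlr5*, *Tlr6*, and *Tlr9*, which encode receptors, *Cd14* and *Ly96*, which encode co-receptors, and *Myd88*, which encodes an adaptor. They were chosen by name, for their role, as 10 of the 55450 genes in the table of counts, and all 10 were among the 21451 genes that passed the expression filter. The cells were CD45-EpCAM+ TECs sorted at E17 from mouse embryos with 1 *Ccl21a* allele replaced by tdTomato (Ccl21a tdTomato/+) and a RANK-Venus reporter (Tnfrsf11a(RANK)Venus). *Ccl21a* encodes a chemokine that attracts thymocytes, and *Tnfrsf11a* encodes the receptor RANK. The sort by fluorescence gave 3 libraries with tdTomato only (CCL21+RANK-, here CCL21+ TECs), 3 with Venus only (CCL21-RANK+, here RANK+ TECs), and 2 with neither (CCL21-RANK-, here double-negative TECs). All embryos carried both reporters, and the labels state no treatment. The study describes its data as biological replicates, and the number of embryos behind each library is not given in the sources used here. The p-values weigh differences between groups against the spread between these libraries, estimated over all groups together. Each library held between 42751858 and 71625319 counts.

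Toll-like receptors at the cell surface recognise bacterial lipopeptides (*Tlr2* with *Tlr1* or *Tlr6*), lipopolysaccharide (*Tlr4* with *Cd14* and *Ly96*), and flagellin (*Tlr5*). Those in endosomes recognise double-stranded RNA (*Tlr3*) and DNA rich in unmethylated CpG (*Tlr9*), and *Myd88* carries the signal of every receptor named here except *Tlr3* to the IRAK kinases and NF-kappaB. In the thymic medulla, RANK signalling also reaches NF-kappaB and is known for driving the maturation of the mTECs that express Aire, whereas CCL21-expressing mTECs draw positively selected thymocytes into the medulla.

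Levels are given as RPKM, reads scaled to the exon length of the gene and the total of the library. Fold changes and adjusted p-values are from edgeR's quasi-likelihood test in 1 fit of all 8 libraries, adjusted over all genes tested, and a gene was called at an adjusted p under 0.05. The 3 comparisons share libraries, so they are not independent of each other. In RNA from sorted populations, fewer cells of a type and less RNA per cell cannot be told apart.

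Nearly all counts of *Tlr9* and *Tlr1* came from RANK+ libraries, and the sequences at their start sites are shown because these genes moved together and carry the same short match. RefSeq promoter windows, which run from 250 bases before to 50 bases after a start site, were found for 7 of the 10 genes, in 9 windows on GRCm38.p6. In the windows below, written 5′ to 3′ on the strand of the gene, capitals mark a match to GAGGAAGT on either strand. This string is a core of sites bound by PU.1, a transcription factor encoded by *Spi1*. The *Tlr9* window lies at chr9:106222348-106222647 on the plus strand, and the *Tlr1* window at chr5:64933509-64933808 on the minus strand.
Tlr9: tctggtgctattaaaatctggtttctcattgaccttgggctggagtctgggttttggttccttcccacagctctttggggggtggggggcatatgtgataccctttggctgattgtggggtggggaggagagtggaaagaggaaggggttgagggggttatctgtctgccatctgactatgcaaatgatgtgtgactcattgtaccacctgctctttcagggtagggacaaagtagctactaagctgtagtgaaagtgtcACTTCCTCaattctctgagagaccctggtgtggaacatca
Tlr1: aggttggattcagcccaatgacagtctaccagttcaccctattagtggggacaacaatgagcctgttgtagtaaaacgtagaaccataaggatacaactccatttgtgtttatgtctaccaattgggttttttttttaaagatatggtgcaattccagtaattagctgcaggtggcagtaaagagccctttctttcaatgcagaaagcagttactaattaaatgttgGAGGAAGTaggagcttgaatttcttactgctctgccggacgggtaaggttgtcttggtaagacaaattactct
The match began 10 bases after the start site in *Tlr9* and 23 bases before it in *Tlr1*, and the string occurred in 3.20% of all 32851 windows of this length. The 7 other windows, including another start site of *Tlr1*, held none. No window was found for *Tlr4*, *Ly96*, or *Cd14*, which was also higher in RANK+ TECs, so these genes were not searched. A kappaB-type string, GGG and TTTCC parted by 2 bases of any kind, occurred in 1.63% of all windows and, among these genes, in *Tlr3*, 211 bases before its start. An interferon-response string, GAAA and GAAA parted by 2 bases of any kind, occurred in 3.44% of all windows and here in *Myd88*, 40 bases before its start, and as a pair of overlapping matches in a window of *Tlr6*. Each string was searched on both strands, and matches to different strings did not overlap in these windows. A match describes the letters of a window and is not a bound site.

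Before the receptors were compared, the libraries were checked against their labels. *Ccl21a* stood at 561, 346, and 305 RPKM in CCL21+ libraries, at 152, 95.9, and 78.2 RPKM in RANK+ libraries, and at 6.89 and 8.88 RPKM in double-negative libraries. *Tnfrsf11a* stood at 111, 93.1, and 107 RPKM in RANK+ libraries, against 8.78, 9.44, and 10.3 RPKM in CCL21+ and 2.62 and 2.26 RPKM in double-negative libraries. *Ccl21a* has near-identical copies that share its reads, so its own level is uncertain. Both sorting genes were highest where the labels place them, and *Epcam* lay between 49.5 and 156 RPKM in all 8 libraries. *Aire*, which encodes the regulator of self-antigen expression in mTECs, was at 131, 94.1, and 114 RPKM in RANK+ libraries.

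Genes of other cell types also differed between the groups. Their counts between RANK+ and CCL21+ TECs stand beside 30.6% of all genes tested called higher and 23.1% lower. A marker could pass the expression filter through RANK+ libraries alone, and such a marker could hardly be called lower there. Of 20 macrophage and dendritic cell markers, 18 were tested, and 15 were called higher and 0 lower in RANK+ than in CCL21+ TECs, with a median log2 fold change of 4.95 (4.81 with groups at 0 set to the floor of 3 counts over the group). Their summed level was 93.4, 27.0, and 34.5 RPKM in RANK+ libraries, 2.21, 1.13, and 1.21 RPKM in CCL21+ libraries, and 0.883 and 0.679 RPKM in double-negative libraries. The most abundant was *Lyz2*, the lysozyme of macrophages, at 52.3, 14.7, and 17.8 RPKM in RANK+ libraries and at 0.158 RPKM or less elsewhere. *Ptprc*, which encodes the CD45 used to remove leukocytes, was at 0.576, 0.177, and 0.422 RPKM in RANK+ libraries and at 0.193 RPKM or less in the others. *Spi1* was at 2.69, 1.21, and 1.21 RPKM in RANK+ libraries and *Adgre1*, the macrophage antigen F4/80, at 3.29, 2.12, and 1.18 RPKM. *Clec9a* and *Siglech*, markers of dendritic cell types, were listed at 0 in at least 1 RANK+ library and in all of the others. RANK+ replicate 1 had the highest summed level of this list and of the next 3 lists. Without it, 12 of 17 tested macrophage and dendritic cell markers were still called higher, and the part of these cells in the results below was not tested.

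Of 10 thymocyte and B cell markers, 5 were called higher in RANK+ than in CCL21+ TECs and 0 lower (median log2 fold change of 1.32). Among all genes tested, 30.6% were called higher and 23.1% lower. Without RANK+ replicate 3, 3 of 9 tested markers were called higher, near that background. The summed level was 20.7, 8.78, and 16.3 RPKM in RANK+ libraries against 10.2, 3.95, and 5.83 RPKM in CCL21+ and 3.35 and 3.02 RPKM in double-negative libraries. *Rag1*, the recombinase of developing lymphocytes, was the most abundant of them. Of 7 tested endothelial markers, 6 were called higher and 0 lower (median of 2.87), with *Tek*, an angiopoietin receptor, leading at 2.17, 1.06, and 0.923 RPKM in RANK+ libraries. Of 9 mesenchymal markers, 6 were called higher and 2 lower (median of 2.09), and *Col1a1*, a collagen chain, stood at 24.0, 7.43, and 15.4 RPKM in RANK+ libraries. Only 1 mesenchymal marker was called lower without CCL21+ replicate 1 or 2 or RANK+ replicate 2 or 3. All 4 parathyroid markers were lower in RANK+ TECs (median of -7.56). *Chga*, a granule protein of endocrine cells, reached 4061, 878, and 1020 RPKM in CCL21+ libraries, and the part of parathyroid cells in the results below was not tested. Of the 10 sorting and TEC identity genes, 3 were called higher and 6 lower in RANK+ than in CCL21+ TECs (median of -0.64). The list includes *Ccl21a* and *Tnfrsf11a*, whose reporters set the sort. The lower calls were 5 when any CCL21+ or RANK+ library was left out. The 3 higher calls are near the 30.6% of all genes tested, and 23.1% of all genes were called lower.

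Between RANK+ and CCL21+ TECs, 6 of the 10 genes were called. *Tlr9*, *Tlr1*, and *Cd14* were higher in RANK+ TECs, and *Tlr3*, *Tlr4*, and *Myd88* were lower. Among all genes tested, 53.7% were called in this comparison, 30.6% higher and 23.1% lower, so a count of 6 is near the background and the sizes of single genes say more. The 10 genes had a median log2 fold change of -0.24, where all genes tested had 0.11. At the thresholds of the study, which also ask for a fold change over 1.5 and an RPKM over 1, 4 of the genes were called (*Tlr9* and *Cd14* higher, *Tlr3* and *Tlr4* lower), and 30.9% of all genes tested. The libraries of both groups did not overlap for 7 of the 10 genes, as for 59.8% of all genes tested.

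Between CCL21+ and double-negative TECs, 0 of the 10 genes were called, where 11.4% of all genes tested were called, 6.28% higher and 5.15% lower. *Tlr3* and *Tlr5* had an unadjusted p under 0.05 in edgeR, and DESeq2 called both. The 11.4% does not hold for these other rules, so these 2 genes are not set against a background. The study thresholds gave 0 of the 10 genes and 8.02% of all genes. The median log2 fold change of the 10 genes was 0.28 (0.31 with *Tlr1* at its floor), where all genes tested had 0.00. The libraries did not overlap for 4 of the 10 genes and for 38.8% of all genes tested.

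Between RANK+ and double-negative TECs, 5 of the 10 genes were called, with *Tlr9*, *Tlr1*, and *Cd14* higher and *Tlr4* and *Tlr5* lower in RANK+ TECs. The background was 49% of all genes tested, 27% higher and 21.9% lower. The study thresholds gave 3 of the 10 genes and 29.5% of all genes. The median log2 fold change of the 10 genes was 0.40, where all genes had 0.06, and 5 of the 10 genes did not overlap, against 65.8% of all genes tested.

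**Figure D1:**
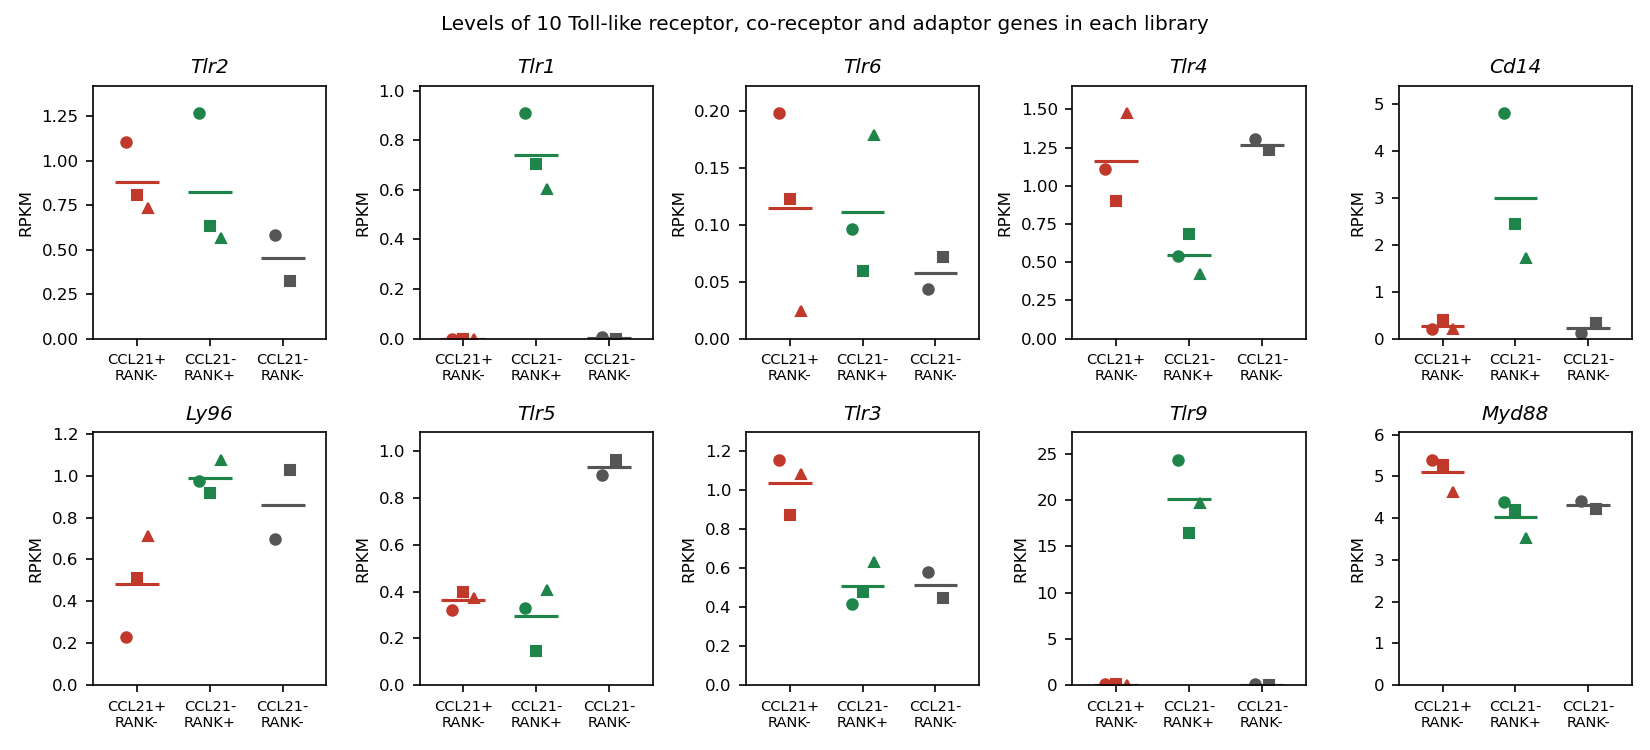
Level in RPKM (vertical axis, each panel with its own scale from 0) of the 10 genes in each library of the 3 sorted groups. Points are libraries (circle, square, and triangle for replicates 1, 2, and 3) and lines are group means, and *Tlr9* reaches 16.4 to 24.4 RPKM in RANK+ TECs against at most 0.0682 RPKM elsewhere.

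*Tlr9* had the highest mean level of the 10 genes over the 8 libraries (7.59 RPKM), followed by *Myd88* (4.51), *Cd14* (1.28), *Tlr4* (0.958), *Ly96* (0.768), *Tlr2* (0.753), *Tlr3* (0.707), *Tlr5* (0.480), *Tlr1* (0.278), and *Tlr6* (0.0991 RPKM). The order differed by group. In CCL21+ and double-negative TECs the adaptor gene *Myd88* was the most abundant and no receptor gene passed 1.5 RPKM in any library, whereas in RANK+ TECs *Tlr9* exceeded *Myd88* in each of the 3 libraries. The plot of levels by library shows both patterns.

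*Tlr9*, the endosomal receptor for CpG-rich DNA (chromosome 9, 106222598 to 106226883, plus strand, 2 exons), was at 24.4, 16.4, and 19.7 RPKM in the RANK+ libraries. The CCL21+ libraries had 0.0578, 0.0625, and 0.0469 RPKM, and the double-negative libraries 0.0682 and 0.0161 RPKM. The 3 RANK+ libraries held 4856, 2861, and 2927 counts of *Tlr9*, and the 5 others held between 4 and 16. *Tlr9* was 330-fold higher in RANK+ than in CCL21+ TECs (log2 fold change of 8.36 ± 0.34 SE, adjusted p = 2.89e-07) and 436-fold higher than in double-negative TECs (8.77 ± 0.42 SE, adjusted p = 6.33e-07). The latter log2 value was 10.17 without double-negative replicate 1 and 7.99 without replicate 2, with the call kept. CCL21+ and double-negative TECs did not differ beyond their spread (log2 fold change of 0.40, adjusted p = 0.702). Among the 3 RANK+ libraries, *Tlr9* was highest in replicate 1, where the macrophage and dendritic cell markers were also highest. Without that library, *Tlr9* was higher than in CCL21+ TECs by 8.26 on the log2 scale (adjusted p = 8.09e-07). RANK+ replicates 2 and 3 also held these markers, at 27.0 and 34.5 summed RPKM. Leaving out replicate 1 thus does not test their part in *Tlr9*.

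*Tlr3*, the endosomal receptor for double-stranded RNA (chromosome 8, 45395665 to 45411080, minus strand), went the other way. It was at 1.16, 0.873, and 1.08 RPKM in CCL21+ libraries, at 0.416, 0.479, and 0.629 RPKM in RANK+ libraries, and at 0.581 and 0.448 RPKM in double-negative libraries. All CCL21+ libraries lay above the 5 others, which overlapped each other. *Tlr3* was lower in RANK+ than in CCL21+ TECs (log2 fold change of -1.14 ± 0.29 SE, adjusted p = 0.00812). The difference between CCL21+ and double-negative TECs was similar in size (1.00 ± 0.33 SE) and was not called (adjusted p = 0.0853). It was called by DESeq2 (adjusted p = 0.00700), with at least 10 counts in every library (0.0350), in a fit of the 2 groups alone (0.0278), and without RANK+ replicate 1 (0.0433). The antisense gene *Gm45542* shares 381 exon bases with *Tlr3* and had 1 count in CCL21+ replicate 3 and 0 in the 7 other libraries. Whether the counting used the strand is not given in the sources used here.

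The lipopeptide receptors were low. *Tlr2* (chromosome 3, 83836272 to 83841767, minus strand), which pairs with *Tlr1* or *Tlr6*, was at 1.11, 0.808, and 0.734 RPKM in CCL21+ libraries. It was at 1.27, 0.635, and 0.567 RPKM in RANK+ libraries and at 0.580 and 0.324 RPKM in double-negative libraries. The groups with a reporter overlapped, and no comparison was called (adjusted p of 0.654, 0.263, and 0.254 for RANK+ against CCL21+, CCL21+ against double-negative, and RANK+ against double-negative TECs).

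*Tlr1* (chromosome 5, 64924679 to 64933563, minus strand) was detected in all 3 RANK+ libraries, at 0.911, 0.703, and 0.605 RPKM. It had 0 counts in the 3 CCL21+ libraries and 1 and 0 counts in the double-negative libraries. Set against a floor of 3 counts over the group, *Tlr1* was at least 125-fold higher in RANK+ than in CCL21+ TECs (adjusted p = 1.19e-04). Against the single count in double-negative TECs the ratio was 324, with a 95% counting interval of 57.7 to 12812 (adjusted p = 4.56e-04). Without double-negative replicate 2 the ratio was 149 (26.5 to 5882, adjusted p = 0.00474), and without replicate 1, which held the single count, *Tlr1* was at least 58.3-fold higher (adjusted p = 0.00261). The bound against CCL21+ TECs was 78.8-fold without CCL21+ replicate 1 and 79.1-fold without replicate 3, as fewer libraries share the floor. *Tlr6*, its neighbour on the same strand (64952031 to 64960097), was at 0.198, 0.122, and 0.0243 RPKM in CCL21+, at 0.0957, 0.0589, and 0.179 RPKM in RANK+, and at 0.0438 and 0.0712 RPKM in double-negative libraries. These values overlapped between all groups, and no comparison of *Tlr6* was called (adjusted p of 0.841, 0.567, and 0.521 in the same order).

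*Tlr1* and *Tlr6* are similar in sequence, and their counts were partly shared. The values were not whole in RANK+ replicates 1 and 3, where they summed to 195 and 115 counts, and *Tlr1* took 89.5%, 91.5%, and 75.3% of the sum in the 3 RANK+ libraries. With the counts of both genes added together, a quantity chosen after the data were seen, the sum was 6.03-fold higher in RANK+ than in CCL21+ TECs (adjusted p = 0.00816) and 11.9-fold higher than in double-negative TECs (adjusted p = 0.00540). The division between the 2 genes is thus uncertain, and their sum rose in RANK+ TECs.

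The genes of the lipopolysaccharide receptor complex moved in different directions. *Tlr4* (chromosome 4, 66827584 to 66930284, plus strand), the signalling receptor, was at 1.11, 0.900, and 1.48 RPKM in CCL21+ libraries and at 1.30 and 1.23 RPKM in double-negative libraries. In RANK+ libraries it was at 0.537, 0.682, and 0.421 RPKM, below all 5 others. *Tlr4* was lower in RANK+ than in CCL21+ TECs (log2 fold change of -1.19 ± 0.26 SE, adjusted p = 0.00398) and than in double-negative TECs (-1.33 ± 0.29 SE, adjusted p = 0.00389), and the latter groups did not differ beyond their spread (adjusted p = 0.835).

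*Cd14* (chromosome 18, 36725067 to 36726798, minus strand) encodes the co-receptor that hands lipopolysaccharide to the complex. It was at 4.81, 2.45, and 1.72 RPKM in RANK+ libraries, at 0.213, 0.402, and 0.199 RPKM in CCL21+ libraries, and at 0.120 and 0.330 RPKM in double-negative libraries. The 3 RANK+ libraries lay above all others, and replicate 1 was the highest. *Cd14* was 9.89-fold higher in RANK+ than in CCL21+ TECs (log2 fold change of 3.31 ± 0.56 SE, adjusted p = 8.53e-04) and 12.2-fold higher than in double-negative TECs (3.61 ± 0.67 SE, adjusted p = 0.00169). The latter log2 value was 4.42 without double-negative replicate 2. Without RANK+ replicate 1, the difference from CCL21+ TECs was 2.85 (adjusted p = 0.00268). *Cd14* is also a gene of monocytes and macrophages, whose markers moved the same way in all RANK+ libraries. The part of these cells in the level of *Cd14* was not tested.

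*Ly96* (chromosome 1, 16688051 to 16709611, plus strand), which encodes MD-2, the subunit that binds lipopolysaccharide, was at 0.975, 0.918, and 1.08 RPKM in RANK+ libraries. It was at 0.230, 0.511, and 0.711 RPKM in CCL21+ libraries and at 0.697 and 1.03 RPKM in double-negative libraries. The RANK+ libraries lay above the CCL21+ libraries without overlap, but the difference was not called (log2 fold change of 0.92 ± 0.53 SE, adjusted p = 0.168), and neither were the others (adjusted p of 0.422 for CCL21+ and 0.911 for RANK+ against double-negative TECs).

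*Tlr5* (chromosome 1, 182954788 to 182976044, plus strand), the flagellin receptor, was highest in double-negative TECs, at 0.901 and 0.965 RPKM. The CCL21+ libraries had 0.322, 0.399, and 0.371 RPKM and the RANK+ libraries 0.332, 0.146, and 0.405 RPKM, which overlapped (adjusted p = 0.374). *Tlr5* was lower in RANK+ than in double-negative TECs (log2 fold change of -1.79 ± 0.43 SE, adjusted p = 0.00686). The difference between CCL21+ and double-negative TECs, -1.35 ± 0.43 SE, was not called (adjusted p = 0.0742), although the libraries did not overlap. It was called by DESeq2 (adjusted p = 0.0273), with at least 10 counts in every library (0.0481), in a fit of the 2 groups alone (0.0117), and without RANK+ replicate 2 (0.0377).

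*Myd88* (chromosome 9, 119335934 to 119341411, minus strand) had the smallest change among the genes called. It was at 5.41, 5.28, and 4.63 RPKM in CCL21+ libraries, at 4.38, 4.20, and 3.53 RPKM in RANK+ libraries, and at 4.42 and 4.22 RPKM in double-negative libraries. CCL21+ libraries were the highest, without overlap. *Myd88* was lower in RANK+ than in CCL21+ TECs by a log2 fold change of -0.47 ± 0.17 SE (adjusted p = 0.0389), and the other comparisons were not called (adjusted p of 0.471 and 0.359). This call was the least stable. It was lost with upper-quartile scaling (adjusted p = 0.0750), with the size factors of DESeq2 (0.0845), with DESeq2's test (0.0758), without the expression filter (0.0969), with at least 10 counts in every library (0.113), and in a fit of the 2 groups alone (0.0604). It was kept when CCL21+ replicate 3 (0.0235) or RANK+ replicate 2 (0.0478) was left out, and lost when any of the 6 other libraries was, at 0.0532 to 0.149. *Myd88* shares 290 exon bases with *Acaa1a* on the opposite strand, and *Acaa1a* was also lower in RANK+ than in CCL21+ TECs (log2 fold change of -0.73, adjusted p = 8.30e-05). The part of these shared bases in the result was not tested.

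**Figure D2:**
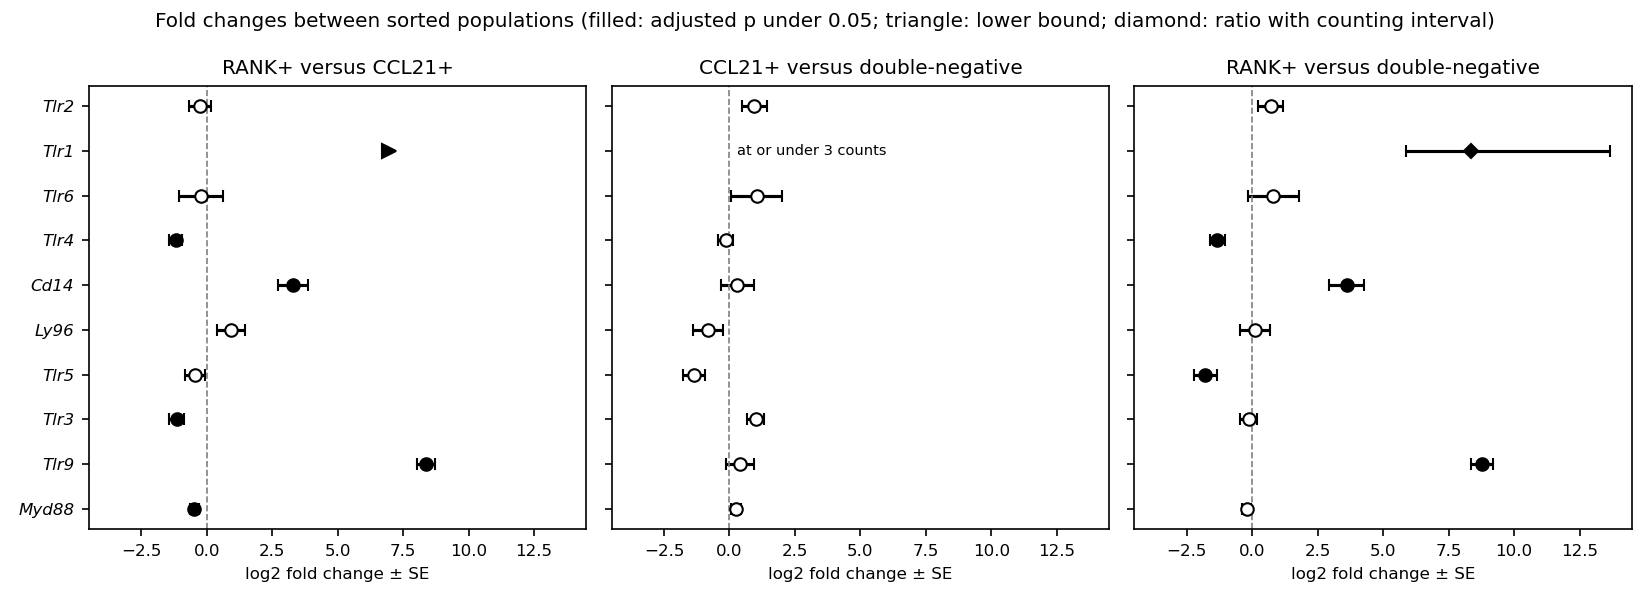
Log2 fold change of the 10 genes (rows) in the 3 comparisons (panels), first group over second, with bars of 1 SE and filled symbols for an adjusted p under 0.05. For *Tlr1*, the triangle is the lower bound against the floor and the diamond is the ratio with its counting interval, and *Tlr9* lies at 8.36 and 8.77 where RANK+ TECs are compared.

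The genes most like the 3 members of highest mean CPM were found by Pearson's r of log2 CPM over the 8 libraries, which share their sorted groups. The genes nearest to *Tlr9* were *Ncf4*, a subunit of the phagocyte NADPH oxidase, *Slc30a2*, a zinc transporter, and *Tvp23a* (r of 0.999 for each). Nearest to *Myd88* were *Ash1l*, a histone methyltransferase (0.983), *Irak1*, the kinase that *Myd88* recruits (0.973), and *Galnt2*, a glycosyltransferase (0.960). Nearest to *Tlr4* were *Ube2q2*, a ubiquitin-conjugating enzyme (0.993), *Psmd12*, a proteasome subunit (0.990), and *Ttc30b* (0.988).

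Other genes of the Toll pathway were grouped in 5 lists. The counts between RANK+ and CCL21+ TECs stand beside 30.6% of all genes tested called higher and 23.1% lower. A gene could pass the expression filter through RANK+ libraries alone, and such a gene could hardly be called lower there. How many genes of each list did so was not counted, so the higher calls and medians are descriptive. Counts with a library left out are not set against these shares, as calls over all genes then also moved. Accessory and endosomal trafficking proteins, which bring Toll-like receptors and their ligands together, had 20 genes tested. Of these, 11 were called higher and 5 lower in RANK+ than in CCL21+ TECs, with a median log2 fold change of 1.23. The higher calls were 9 of 20 without CCL21+ replicate 2 and 8 of 17 tested without RANK+ replicate 1. *Slc15a3*, an endosomal peptide transporter, rose most among the named genes, from 0.174, 0.0633, and 0.0132 RPKM to 17.005, 9.998, and 12.6 RPKM (log2 fold change of 7.12). *Unc93b1*, the chaperone that delivers *Tlr3* and *Tlr9* protein to endosomes, was at 15.6, 10.1, and 14.3 RPKM in RANK+ libraries, at 4.32, 3.16, and 3.69 RPKM in CCL21+ libraries, and at 7.10 and 8.12 RPKM in double-negative libraries. It was 3.28-fold higher in RANK+ than in CCL21+ TECs (adjusted p = 1.72e-05). Its levels were ordered RANK+, double-negative, CCL21+, with no overlap between groups.

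The list also held the Toll-like receptors outside the 10 genes. *Tlr12*, a receptor for the protein profilin, was at 2.26, 0.697, and 1.10 RPKM in RANK+ libraries and at 0.0971 RPKM or less elsewhere (log2 fold change of 4.75 against CCL21+, adjusted p = 0.00238). *Tlr7* and *Tlr13*, endosomal receptors for RNA, were called higher too, but stayed at or below 0.218 RPKM in every library. *Tlr8* and *Tlr11* did not pass the expression filter. *Cd36*, a scavenger receptor that works with *Tlr2*, was higher in RANK+ TECs (log2 fold change of 4.09). Lower were *Scarb2* (-1.79), a lysosomal membrane protein, *Grn* (-1.31), which encodes progranulin, and *Tril* (-0.70), an accessory protein of *Tlr3* and *Tlr4*. The call of *Tril* was lost without any 1 of the 8 libraries except CCL21+ replicate 1 (adjusted p of 0.0650 to 0.159). The log2 fold change of *Slc15a3* was 8.35 without CCL21+ replicate 1, that of *Tlr12* was 4.14 without CCL21+ replicate 1 and 5.89 without replicate 3, and that of *Cd36* was 3.20 without RANK+ replicate 1. Against double-negative TECs, 10 of the 20 genes were called higher and 4 lower in RANK+ TECs (median of 0.71), where all genes tested had 27% and 21.9%.

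Of 30 Toll signalling adaptors and kinases, 13 were called higher and 10 lower in RANK+ than in CCL21+ TECs (all genes tested, 30.6% and 23.1%), and the median log2 fold change was 0.06. The higher calls fell to 10 without CCL21+ replicate 3 and rose to 14 without RANK+ replicate 2. *Ticam2*, the bridging adaptor that links *Tlr4* to interferon signalling, had 1412 counts in RANK+ libraries and 1 in CCL21+ libraries, a ratio of 1393 with a 95% counting interval of 249.6 to 55052. The ratio was 879 without CCL21+ replicate 1 and 882 without replicate 3, and without replicate 2, which held the single count, *Ticam2* was at least 342-fold higher. It was at 1.68, 1.39, and 1.83 RPKM in RANK+ libraries. *Pik3ap1*, an adaptor to phosphoinositide 3-kinase, was higher (log2 fold change of 3.75). *Traf6*, the ubiquitin ligase below *Myd88* and also below RANK, rose from 7.99, 6.01, and 8.14 RPKM to 18.2, 16.4, and 16.3 RPKM (1.09). *Tab1* (-1.95), a partner of the kinase TAK1, *Irf7* (-1.77), an interferon regulatory factor, and *Tirap* (-1.16), which joins *Myd88* to *Tlr2* and *Tlr4*, were lower. *Irak4*, the kinase that joins *Myd88* first, was at 1.54, 1.55, and 1.48 RPKM in RANK+ libraries against 3.10, 2.46, and 3.35 RPKM in CCL21+ libraries (-1.07). *Irak1* was between 13.8 and 16.6 RPKM in all 8 libraries and was not called.

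Of 22 brakes on Toll signalling, 11 were called higher and 7 lower in RANK+ than in CCL21+ TECs (median of 0.33), beside the same shares of all genes. The higher calls fell to 8 without CCL21+ replicate 2 and rose to 12 without RANK+ replicate 2. *Il1rl1*, the IL-33 receptor, rose most (1112 against 4 counts, log2 fold change of 7.96, or 7.36 without CCL21+ replicate 3, and at least 231-fold higher without CCL21+ replicate 1, which held the 4 counts), followed by *Traf1* (2.39), a signalling adaptor, and *Nfkbid* (1.67), a nuclear IkappaB protein. *Irak3*, which blocks the IRAK complex, was at 0.646, 0.776, and 0.630 RPKM in RANK+ and at 2.37, 2.06, and 2.39 RPKM in CCL21+ libraries (-1.85). *Socs3* (-1.77), an inhibitor of cytokine receptors, and *Nfkbiz* (-1.13), a nuclear IkappaB protein that can also activate genes, were lower as well. Several members of this list, *Il1rl1*, *Traf1*, and *Nfkbiz* among them, have roles besides that of a brake.

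The interleukin-1 family, whose signalling receptors use *Myd88*, was followed through receptors, ligands, a decoy receptor, and an antagonist. Of 11 genes tested, 9 were called higher and 2 lower in RANK+ than in CCL21+ TECs (median of 3.97, or 3.60 with groups at 0 set to the floor). *Il18r1*, a chain of the IL-18 receptor, stood at 23.1, 8.52, and 11.6 RPKM in RANK+ libraries and at 0.292, 0.126, and 0.320 RPKM in CCL21+ libraries (log2 fold change of 5.72). *Il1rn*, the IL-1 receptor antagonist, stood at 14.3, 8.34, and 8.11 RPKM against 0.524, 0.318, and 0.308 RPKM (4.60). *Il1r2*, a decoy receptor that does not signal, was 1.32-fold higher (adjusted p = 0.0402). *Il1b* was at least 77.6-fold higher against the floor, with 2.00 RPKM in RANK+ replicate 1 and 0.0837 and 0.110 RPKM in the other replicates. Of its 236 counts, 17 came from the latter, and without RANK+ replicate 1 the bound was 9.35-fold and *Il1b* did not pass the expression filter, nor did it without RANK+ replicate 3. The bound was 49.0-fold without CCL21+ replicate 1 and 49.1-fold without replicate 3. The receptor chains *Il1rap* (-0.88) and *Il1r1* (-0.84) were lower. Without RANK+ replicate 1, 9 genes of this list were tested and 5 were called higher. Without CCL21+ replicate 1, 5 of 11 were called higher, and with any 1 of the other libraries left out 6 to 8 were.

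Of 20 tested cytokine and chemokine targets of Toll signalling, 14 were called higher and 2 lower in RANK+ than in CCL21+ TECs (median of 5.08, or 4.26 with groups at 0 set to the floor). Of the 25 genes listed, 10, 11, and 12 had 0 counts in the CCL21+ libraries and 7 and 10 in the double-negative libraries. In each RANK+ library, 1 gene did. *Nos2*, the inducible nitric oxide synthase, was at 21.5, 17.98, and 21.6 RPKM in RANK+ libraries and at 0.123 RPKM or less elsewhere (log2 fold change of 7.80 ± 0.19 SE). *Ccl20*, a chemokine, had 675 counts in RANK+ and 1 in CCL21+ libraries, a ratio of 666 with a 95% counting interval of 119 to 26337 (420 without CCL21+ replicate 1, and at least 141-fold without replicate 3, which held the single count). *Saa3*, an acute-phase protein, was at 13.5, 0.849, and 2.22 RPKM in RANK+ libraries, with replicate 1 far above the others (log2 fold change of 7.41, or 5.60 without that library, and 6.77 without CCL21+ replicate 1 or 3). Without CCL21+ replicate 2, which held all counts of that group, *Saa3* was at least 575-fold higher. *Cxcl16* (-0.84) and *Csf1* (-0.77), a chemokine and a growth factor, were lower, and the call of *Csf1* was lost without CCL21+ replicate 2 (adjusted p = 0.0705) or RANK+ replicate 3 (0.0858). Without RANK+ replicate 1, 12 of 19 tested targets were called higher and 2 lower.

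Between CCL21+ and double-negative TECs, where 11.4% of all genes tested were called, the calls higher and lower in CCL21+ TECs were 1 and 4 of 20 accessory and trafficking genes, 4 and 1 of 30 adaptors and kinases, 7 and 0 of 22 brakes, 3 and 1 of 11 interleukin-1 family genes, and 3 and 1 of 20 cytokine targets. These counts depended on single libraries, as did the calls over all genes. The latter were 2453 with all libraries and ranged from 753 to 3519 with 1 left out, so the 11.4% is not the background of the counts that follow. Without RANK+ replicate 1, which enters this comparison only through the shared fit, the higher calls were 7 adaptors and kinases, 10 brakes, and 6 cytokine targets. Without double-negative replicate 1 they were 1, 3, and 2, without double-negative replicate 2 they were 3, 2, and 1, and without CCL21+ replicate 1 they were 2, 4, and 3. The higher calls of the interleukin-1 family fell to 1 without double-negative replicate 2. The lower calls of accessory and trafficking genes fell to 2 without either double-negative library and without CCL21+ replicate 1 or 2, and the 1 higher call became 0 without either double-negative library and 2 without CCL21+ replicate 1. The 1 lower cytokine target was lost when any of 5 of the 8 libraries was left out, all but CCL21+ replicate 3 and RANK+ replicates 1 and 2. The macrophage and dendritic cell markers had 0 of 18 called by edgeR in this comparison, whereas all 18 were called higher in RANK+ than in double-negative TECs (12 without double-negative replicate 1 and 9 without replicate 2). *Unc93b1*, a member of the trafficking and of the adaptor list, was lower in CCL21+ than in double-negative TECs (log2 fold change of -1.03). Between RANK+ and double-negative TECs, where 27% of all genes tested were called higher and 21.9% lower, 14 of 30 adaptors and kinases were called higher and 8 lower, with 12 and 6 of 22 brakes, 7 and 1 of 11 interleukin-1 family genes, and 16 and 0 of 20 cytokine targets. The lower calls of adaptors and kinases and of brakes were near the background. Without double-negative replicate 1 or 2, which leaves 1 library in that group, the higher calls in this comparison fell in all 5 lists. This includes the cytokine targets and the brakes. The lower calls of adaptors and kinases fell in both cases too. Without RANK+ replicate 3, those lower calls were 5. Calls over all genes in this comparison also moved, from 10501 with all libraries to between 6814 and 10568 with 1 left out. The 27% and 21.9% are thus not the background of these reduced counts.

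**Figure D3:**
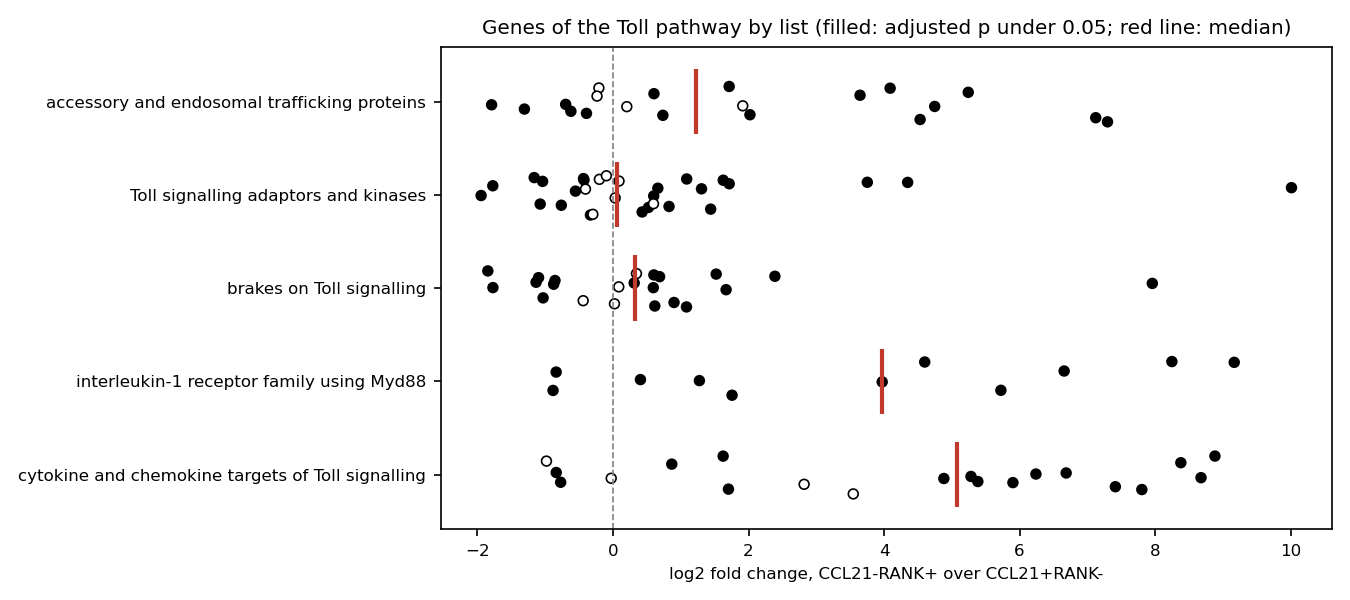
Log2 fold change, RANK+ over CCL21+ TECs, of each tested gene (points) of the 5 pathway lists (rows). Filled points passed an adjusted p under 0.05, red lines are medians of the fitted values, and the medians of 3.97 and 5.08 for the interleukin-1 family and the cytokine targets lie far right of 0.

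**Figure D4:**
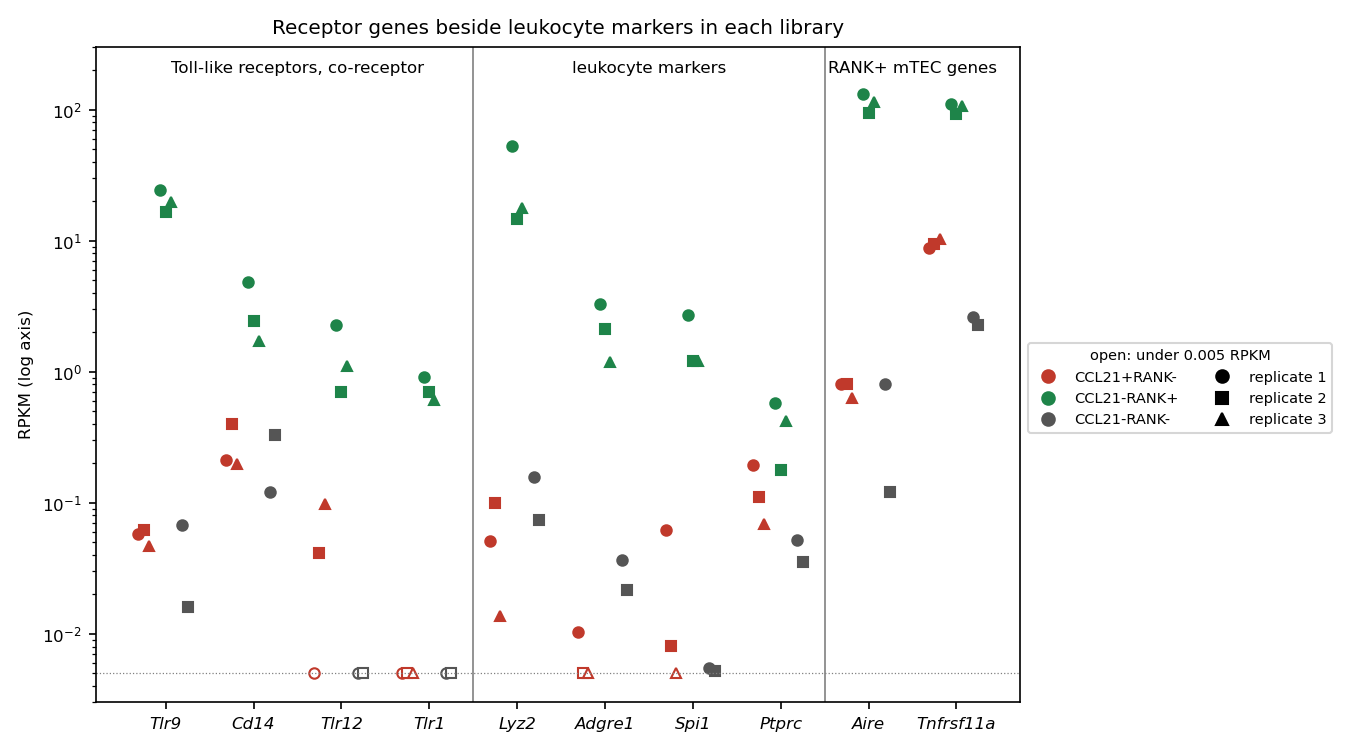
RPKM on a log axis of 4 receptor or co-receptor genes, 4 leukocyte markers, and *Aire* and *Tnfrsf11a* in each library, with colours for groups and shapes for replicates. Open symbols on the dotted line are values under 0.005 RPKM, and RANK+ libraries lie highest for *Tlr9* (16.4 to 24.4 RPKM) and for *Lyz2* (14.7 to 52.3 RPKM).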

How the data were processed

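RNA-sequencing of 8 libraries of E17 TECs was analysed. The authors deposited 1 table of expected counts per gene from RSEM, with no normalization, and between 4.47% and 5.94% of each library's values were fractional. Per the submitters' processing notes, bcl2fastq 2.20, Trimmomatic, STAR 2.5.1, and RSEM 1.3.1 were used with mm10. The labels name a NEBNext Ultra II Directional kit. The study's methods name instead a TruSeq Stranded Total RNA kit, with CLC Genomics Workbench for the analysis. The strand setting of the counting is not given in the sources used here. Groups and replicate numbers were taken from the labels.

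After rounding, edgeR 4.0.16 (R 4.3.3) was run with TMM factors, its default expression filter, the quasi-likelihood test, and Benjamini-Hochberg adjustment over 21451 genes. The SE was the size of the log2 fold change divided by the square root of F. RPKM used the library total and the summed exon length of GENCODE M21, in which all 55450 identifiers were found. Promoter sequences are from RefSeq. Replicates differed by more than sampling noise (chi-square per gene of 77.3 to 274.9), which does not show whether they come from separate embryos. Each library was counted as 1 replicate. The common biological coefficient of variation was 0.326. Counting intervals cover counting error only. The test scripts were tested on simulated data.

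The members and lists were chosen with earlier results of these data known. Named besides the members were, from each pathway list, up to 3 called genes per direction, ranked by log2 fold change between RANK+ and CCL21+ TECs and with 1 CPM or more where they were higher, the most abundant marker of each cell type, the sorting genes, and the 3 genes most like each of the 3 members of highest mean CPM. *Ptprc*, *Spi1*, *Adgre1*, *Clec9a*, *Siglech*, *Aire*, *Tlr7*, *Tlr8*, *Tlr11*, *Tlr13*, *Traf6*, *Irak4*, *Il1r2*, and the genes that overlap members were named outside this rule, after values had been seen. Alternatives were DESeq2 1.42.0 (size factors and Wald test), upper-quartile scaling, a filter of 10 counts in each library or none, the groups compared alone, the study thresholds, the replicate number as a block, and leaving out each library (for the lists and their named genes, chosen after seeing the data).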

Additional observations from a re-analysis of the deposited data

How the results depend on the processing

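Every call of *Tlr9*, *Tlr1*, *Cd14*, *Tlr4*, and *Tlr5* in comparisons with RANK+ TECs, and of *Tlr3* against CCL21+ TECs, held in each other alternative in which the gene was tested, and that of *Myd88* did not. The study thresholds leave out *Tlr1*, *Tlr5*, and *Myd88*, whose RPKM or fold change is too low. Of the log2 fold changes of single genes recomputed, 438 kept their direction and their side of the threshold, 12 lost the call, 8 gained it, and 12 changed sign or, in 1 case, fell to 0, and the cause was not tested. With at least 10 counts in every library, 7 of the 10 genes were tested, and 3 were called between RANK+ and CCL21+ TECs, 2 between CCL21+ and double-negative TECs, and 3 between RANK+ and double-negative TECs, and *Tlr3* changed sign in the last (0.054). The share of all genes called with this filter is not given here, so these counts are not set against a background. DESeq2's test called 2 of the 10 genes between CCL21+ and double-negative TECs and 3685 genes in all, and a fit of these groups alone called 2 of the 10. The count of all genes called in the latter fit is not given here, so its 2 genes are not set against a background. The study thresholds lowered the counts of all genes to 6618 and 6332 in the comparisons of RANK+ with CCL21+ and double-negative TECs, and the count of the 10 genes to 3 in the latter. The median log2 fold change of all genes between RANK+ and double-negative TECs was 0.06 with TMM and 0.20 with DESeq2's size factors.

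With 1 library left out, 5 to 6 of the 10 genes were called between RANK+ and CCL21+ TECs, 0 to 1 between CCL21+ and double-negative TECs, and 5 in each case between RANK+ and double-negative TECs. All genes called ranged from 753 to 3519 between CCL21+ and double-negative TECs (753 without double-negative replicate 2, 921 without replicate 1, and 1597 without CCL21+ replicate 1) and from 6814, without double-negative replicate 2, to 10568 between RANK+ and double-negative TECs. Log2 fold changes that were not called and crossed or reached 0 were those of *Tlr6* (-0.72 to 0.39) and *Tlr2* (-0.63 to 0.0063) between RANK+ and CCL21+ TECs, of *Cd14* (-0.20 to 1.11), *Tlr1* (-2.99 to 0.00), and *Tlr9* (-0.38 to 1.82) between CCL21+ and double-negative TECs, and of *Tlr3* (-0.38 to 0.13) and *Ly96* (-0.10 to 0.31) between RANK+ and double-negative TECs.

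With the replicate block, 6, 0, and 5 of the 10 genes were called in the 3 comparisons, as without it, and *Ly96* between RANK+ and double-negative TECs stood at -0.050. Deviations from the group means correlated at 0.126, 0.0485, and 0.0707 between CCL21+ and RANK+ libraries of the same number. Among these 6 libraries each correlated best with the library of its own number. Double-negative replicates 1 and 2 correlated at -0.0528 and -0.117 with CCL21+ and at -0.0519 and -0.0411 with RANK+ libraries of their number. Sample numbers run consecutively within a replicate number. The numbers may thus mark pairs, which the labels do not say, and the main fit did not use them. Without the noncoding genes *Gm26917* and *Gm42418*, an alternative chosen after seeing the data, 6, 0, and 5 of the 10 genes were called. The shares of all genes called with the block and without these noncoding genes are not given here, so the counts are compared only with those of the main fit. Depth limits *Tlr6*, with 5 to 44 counts per library, and *Tlr1* outside RANK+ TECs.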
